A study of Mus musculus with 4 samples.

Results

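The proteasome genes of mouse liver were defined by gene symbol, as those beginning with Psma, Psmb, Psmc, Psmd, Psme, Psmf or Psmg in the platform annotation, Psmc3ip excepted. The Illumina array held 66 such probes for 44 genes, out of 25697 probes and 16593 genes with a symbol. They comprised 30 constitutive subunits of the catalytic core and its regulatory cap, 3 immunoproteasome subunits, 6 assembly factors and 5 genes of the activators.

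Livers of the genotype Shp2hep-/- (2 samples) were positive for albumin-Cre, a recombinase that cuts the floxed gene of the phosphatase Shp2. The albumin promoter drives Cre in hepatocytes, and cells of the organ in which Cre is not active keep the gene. The controls were WT Shp2Floxed/Floxed livers (2 samples), which carry the same floxed alleles, and in both groups the mice were 2 months old and not fasted. The labels do not say whether each sample was 1 animal, so that p-values measure only the spread between these samples, which may be technical. All 4 arrays lay on 1 BeadChip, where the place on the chip went with the group, and these cannot be told apart.

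The proteasome degrades proteins tagged with ubiquitin. Its barrel-shaped core, the 20S particle, has outer rings of alpha subunits and inner rings of beta subunits, of which Psmb5, Psmb6 and Psmb7 cut the substrate. In cells exposed to interferon gamma, and in immune cells, Psmb8, Psmb9 and Psmb10 take the places of these 3 subunits, giving the immunoproteasome that favours peptides for antigen presentation. The 19S cap binds ubiquitin chains, unfolds the substrate with its ring of ATPases and feeds it into the core. In mammals the transcription factors NRF1 (Nfe2l1) and NRF2 (Nfe2l2) are known to raise transcription of proteasome subunits after proteasome inhibition or oxidative stress.

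On each array 11542 to 12328 probes were detected above background, at a detection p under 0.05, and 55 or 56 of them were proteasome probes. Values are log2 intensities after background correction and quantile normalization, n = 2 arrays per group, and differences are Shp2hep-/- minus control with the standard error (SE) of limma's fit. Ptpn11, the gene for Shp2, had 11.38 and 11.56 in Shp2hep-/- livers, against 12.75 and 12.85 in control livers (adjusted p = 0.0599 in limma). Where its probe lies relative to the deleted sequence was not analysed here. Of 8 hepatocyte markers, 6 were measured, with summed linear levels of 161297 and 187648 in Shp2hep-/- livers and 182474 and 172480.2 in control livers. Tat and Fgb, also markers of hepatocytes, were not above background on any array. The probe of Alb, the albumin gene, was detected on 3 of 4 arrays and lay near background, at 5.75 and 6.05 in Shp2hep-/- livers and 5.90 and 5.58 in control livers. In bulk tissue, fewer cells of a type and less RNA per cell cannot be told apart.

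Of the 41 measured proteasome genes, 0 passed limma's test at an adjusted p under 0.05, in either direction. The tested rows as a whole had 0.795% called by that rule, with 0.451% higher and 0.344% lower. A count of 0 among 41 is near that share and does not set the proteasome genes apart. Of the 44 genes, 41 had a probe detected on at least 2 arrays. The core subunit genes Psma1 and Psma6 and the ATPase gene Psmc6 had 1 probe each, undetected on all 4 arrays. At an unadjusted p under 0.05 there were 2 proteasome genes, Psmb5 higher and Psmd2 lower, which is 4.88% of the 41. Psmd2 was detected in control livers only and passed the filter through them, so that its p is no separate evidence. With detection required on all 4 arrays, 1 of 40 proteasome genes had such a p, Psmb5. Of all rows tested 16.5% had such a p, 9.45% higher and 7.07% lower. The median difference over the 41 genes was −0.06, against 0.01 over all rows, and 38 of the 41 (92.7%) differed by less than 0.5, against 77.7% of all rows. The proteasome genes were also brighter, with a median level of 11.7 against 8.81 for all rows on the log2 scale. These shares were not matched for level.

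**Figure D1:**
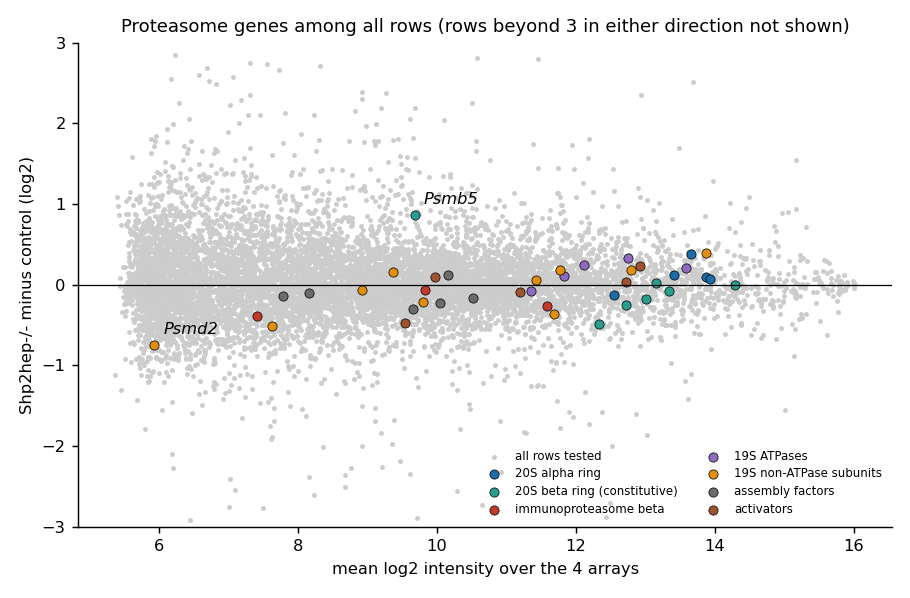
Difference between Shp2hep-/- and control liver (log2) against the mean log2 intensity over the 4 arrays, with 1 grey point per tested row and coloured points for the 41 proteasome genes by class. Psmb5 lies at 0.86, and the point of Psmd2 at −0.75 stands for a probe not above background in Shp2hep-/- livers, so that its distance from 0 is not measured.

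The 95% confidence interval lay within a 2-fold difference in either direction for 36 of the 41 genes. It reached beyond for Psmb5, Psmb7, Psmd2, Psmd6 and Psme2. Both Shp2hep-/- values lay on 1 side of both control values for 24 genes (58.5%), 11 higher (26.8%) and 13 lower (31.7%). Over all rows these shares were 48.6%, 24.8% and 23.8%. The difference exceeded the gap between replicates of both groups for 18 of the 41 genes. Neither this count nor that of the intervals was made over all rows, so that neither sets the proteasome genes apart. The median gap was 0.17 between the Shp2hep-/- arrays and 0.09 between the control arrays, while the median size of the difference was 0.17.

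**Figure D2:**
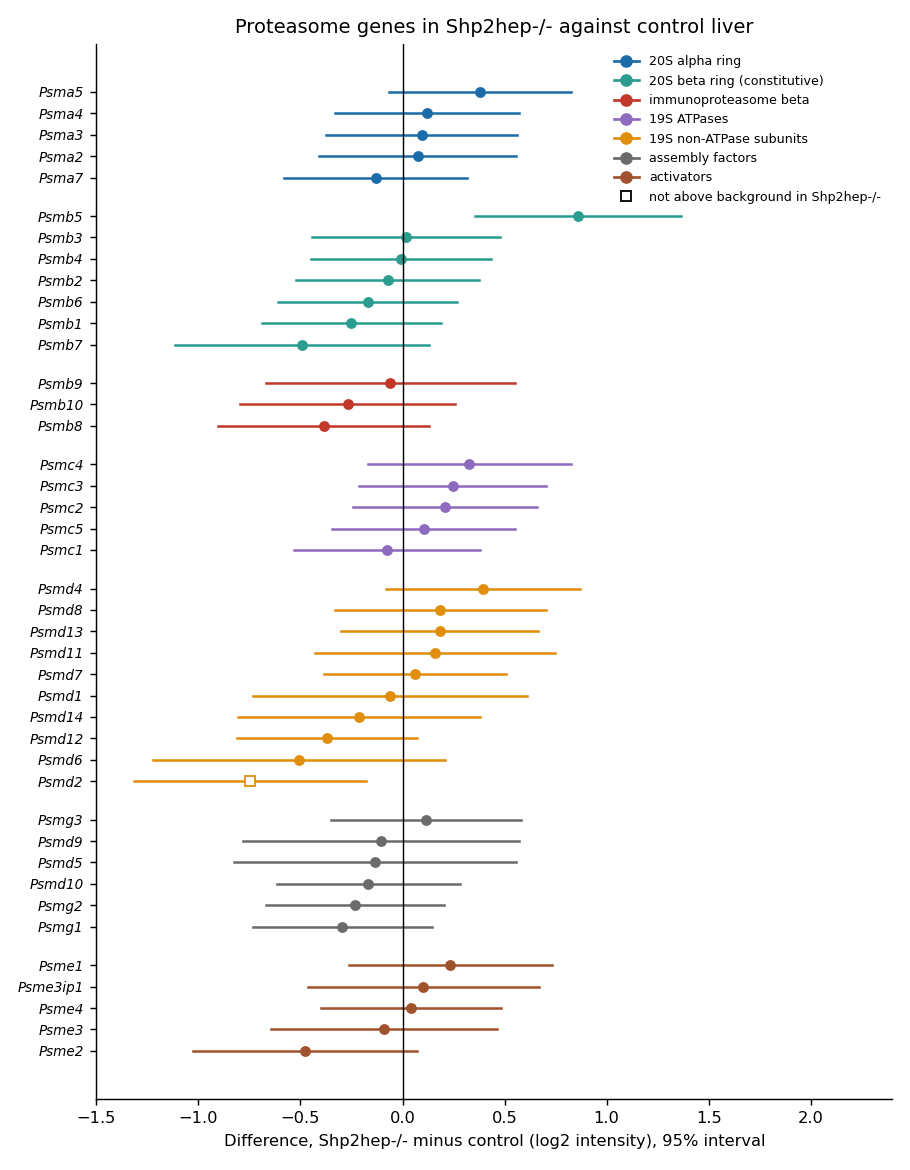
Difference between Shp2hep-/- and control liver on the log2 scale for each of the 41 proteasome genes, grouped by class, with 95% confidence intervals from limma. Psmb5 is the gene measured in both groups whose interval leaves out 0, and the open square marks Psmd2, whose probe was not above background in Shp2hep-/- livers.

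The catalytic subunits of the constitutive core showed no common direction. Of the 40 proteasome genes detected on all 4 arrays, Psmb5 had the largest difference. Psmb5, which carries the chymotrypsin-like activity, had 10.27 and 9.95 in Shp2hep-/- livers, against 9.28 and 9.22 in control livers. Both Shp2hep-/- values were higher, and the difference was larger than the gap between replicates. It came to 0.86 (SE 0.20), 1.82-fold higher in Shp2hep-/- with a 95% interval from 0.36 to 1.36, at an unadjusted p of 0.00656 and an adjusted p of 0.148 in limma. A difference at least as large in the same direction, higher in Shp2hep-/-, was fitted for 427 of the 9311 rows tested (4.59%). Rows as far below 0 are not in that count. With no background correction the adjusted p in limma was 0.0436, and with a trended and robust variance it was 0.0431. These settings called 311 and 367 of the 9311 rows, against 74 with the settings reported, so that more rows of every kind passed. The adjusted p of Psmb5 was under 0.05 in these settings only. Over all 8 alternatives that kept the 4 arrays it ran from 0.0431 to 0.209.

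Psmb6, the caspase-like subunit, had 12.94 and 12.90 in Shp2hep-/- livers, against 13.10 and 13.08 in control livers. Its difference of −0.17 (SE 0.17, adjusted p = 0.687 in limma) was small beside the interval of −0.61 to 0.27, although the groups did not overlap. Psmb7, the trypsin-like subunit, was measured by 3 probes that disagreed. Its brightest probe had 11.80 and 12.38 in Shp2hep-/- livers, against 12.61 and 12.56 in control livers, a difference of −0.49 (SE 0.25, adjusted p = 0.407). The other probes differed by −0.23 and by 0.28, and with the mean of the probes the difference was −0.15, so that no direction can be given for Psmb7. Psmb5 had 1 probe, so that no such check was possible for it. The reference gene table also lists pseudogenes of Psma5, Psmb5, Psmb6 and Psmb7, and whether these probes pick up their transcripts was not tested.

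**Figure D3:**
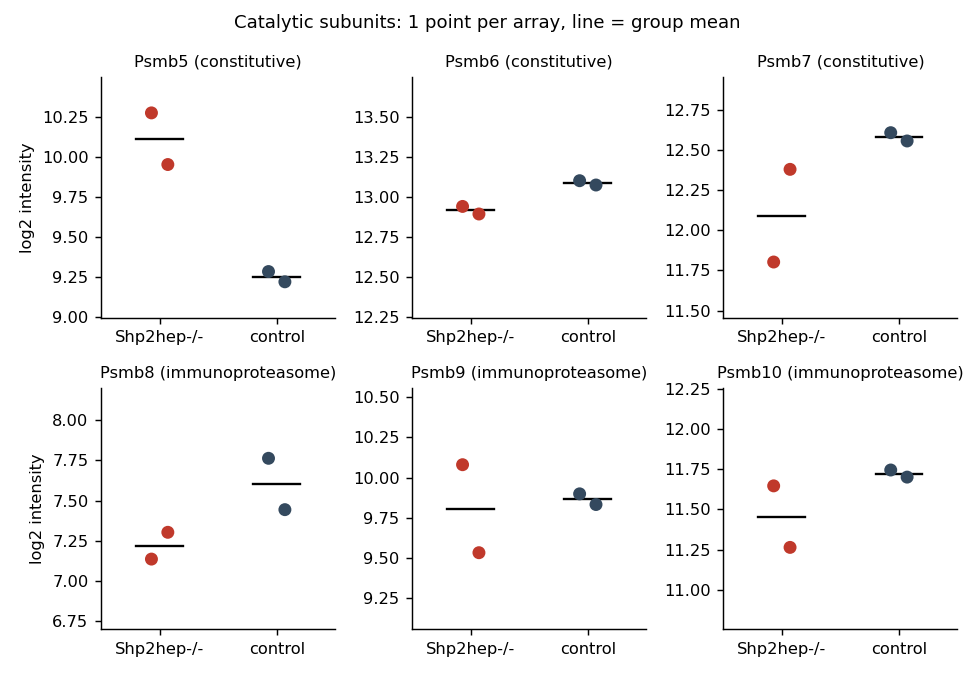
Log2 intensity of the constitutive catalytic subunits (upper row) and of the immunoproteasome subunits (lower row) in Shp2hep-/- and control livers, with 1 point per array and a line at each group mean. All panels span the same range, and Psmb5 is the panel with the widest separation of the groups.

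The immunoproteasome subunits were not higher in Shp2hep-/- liver. All 3 were detected on every array, and 0 of 3 passed the test, with a median difference of −0.27. Psmb8, which replaces Psmb5, had 7.13 and 7.30 in Shp2hep-/- livers, against 7.76 and 7.44 in control livers (difference −0.39, SE 0.21, adjusted p = 0.433). Both Shp2hep-/- values were lower. Psmb10, which replaces Psmb7, had 11.65 and 11.26 in Shp2hep-/- livers, against 11.75 and 11.70 in control livers (difference −0.27, SE 0.21, adjusted p = 0.585). A further probe of Psmb10 differed by −0.20. Psmb9, which replaces Psmb6, had 10.08 and 9.53 in Shp2hep-/- livers, against 9.90 and 9.83 in control livers, so that the groups overlapped (difference −0.06, SE 0.24, adjusted p = 0.936). The upper ends of the 95% intervals were 0.13 for Psmb8, 0.26 for Psmb10 and 0.55 for Psmb9, all under a 2-fold rise. Replicate 2 of Shp2hep-/- decided the size of the class median, which was −0.08 without it.

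Set against its constitutive counterpart on the same arrays, the difference of Psmb8 lay 1.25 below that of Psmb5 (−1.25), that of Psmb9 0.11 above that of Psmb6 and that of Psmb10 0.22 above that of Psmb7. Over these 3 pairs the exact two-sided permutation p was 0.333, 1 and 1, and 1 for each after Benjamini-Hochberg adjustment. With 2 arrays per group 0.333 is the smallest p this test can give. With the mean of the probes Psmb10 differed by −0.23 and Psmb7 by −0.15, so that the order of this pair turned.

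The promoters of Psmb5 and Psmb6 are shown because they are catalytic subunits with unlike differences, and those of Psmb8 and Psmb9 because they are the immunoproteasome genes of the major histocompatibility region. Each is the 250 bases before the start site in RefSeq on build GRCm38.p6, read 5′ to 3′ on the gene's strand. Capitals mark the matches to the motifs named after the sequences.
Psmb5: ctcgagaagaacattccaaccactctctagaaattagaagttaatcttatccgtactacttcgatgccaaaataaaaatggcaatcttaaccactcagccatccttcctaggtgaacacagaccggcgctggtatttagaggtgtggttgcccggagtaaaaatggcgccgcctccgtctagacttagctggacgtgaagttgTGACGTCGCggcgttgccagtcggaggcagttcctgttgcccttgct
Psmb6: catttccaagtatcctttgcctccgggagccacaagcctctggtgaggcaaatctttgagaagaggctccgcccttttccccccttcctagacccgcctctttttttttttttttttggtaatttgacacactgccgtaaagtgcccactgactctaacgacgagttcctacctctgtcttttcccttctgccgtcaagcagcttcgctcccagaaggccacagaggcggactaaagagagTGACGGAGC
Psmb8: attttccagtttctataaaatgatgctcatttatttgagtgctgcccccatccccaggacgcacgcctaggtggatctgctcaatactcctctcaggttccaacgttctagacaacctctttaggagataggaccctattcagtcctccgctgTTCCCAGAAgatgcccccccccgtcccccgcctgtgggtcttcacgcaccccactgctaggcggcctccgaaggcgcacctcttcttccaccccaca
Psmb9: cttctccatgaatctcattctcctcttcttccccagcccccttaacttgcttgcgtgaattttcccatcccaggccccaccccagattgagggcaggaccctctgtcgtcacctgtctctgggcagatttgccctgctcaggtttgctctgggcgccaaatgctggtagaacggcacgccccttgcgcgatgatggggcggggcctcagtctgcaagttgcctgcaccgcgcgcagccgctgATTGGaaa
These windows lie at chr14:54617996-54618245 (minus strand) for Psmb5, chr11:70525107-70525356 (plus strand) for Psmb6, chr17:34197945-34198194 (plus strand) for Psmb8 and chr17:34187331-34187580 (minus strand) for Psmb9. The start sites of Psmb9 and of Tap1, a peptide transporter gene of antigen presentation, lie 226 bases apart on opposite strands, so that these genes share the region between them.

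Of the 44 genes, 38 matched the RefSeq promoter table. Psmb1, Psmb2, Psmb7, Psmc3, Psmd7 and Psmg2 were not among them. The motifs were searched on both strands, and the matches in the printed windows did not overlap each other. TGACNNNGC, the core of the antioxidant response element that NRF1 and NRF2 bind, was present in 5 of the 38 windows (13.2%), against 11.5% of the 27025 genes in the table. The match in Psmb5 ran from 47 to 39 bases before the start, and that in Psmb6 from 9 to 1, while Psmc6, Psmd9 and Psmd12 held the others. Psmb5 differed by 0.86 and Psmb6 by −0.17, and the part of these matches in their values was not tested. CCAAT was in 14 of the 38 windows (36.8%, against 37.5% of all genes), among them Psmb9 and 5 of the 7 alpha subunits. The gamma-activated site TTCNNNGAA, bound by STAT factors, was in 2 of 38 (5.26%, against 8.13%), Psmb8 and Psmg1. The interferon-stimulated element, searched as GAAA, any 2 bases and GAAA, was in 3 of 38 (7.89%, against 3.46%), Psmb3, Psmd4 and Psmd9. The NF-kappaB motif, searched as GGG, any 2 bases and TTTCC, was in 1 of 38 (2.63%, against 1.65%), Psme3ip1. The window of Psmb10 held none of the 5 motifs.

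The structural subunits of the core showed small differences. The alpha ring, which gates the entry to the core, had 0 of 5 measured genes past the test and a median difference of 0.09. Psma5 had 13.85 and 13.85 in Shp2hep-/- livers, against 13.52 and 13.42 in control livers (difference 0.38, SE 0.18, adjusted p = 0.372). Both Shp2hep-/- values were higher. Psma4 differed by 0.12 and Psma7 by −0.13, with adjusted p of 0.796 and 0.775, while Psma2 and Psma3 overlapped between the groups. Of the 7 constitutive beta subunits 0 passed, and the median was −0.07. Psmb1, a beta subunit without catalytic activity, had 12.58 and 12.61 in Shp2hep-/- livers, against 12.88 and 12.82 in control livers (difference −0.25, SE 0.17, adjusted p = 0.538). Psmb2, Psmb3 and Psmb4 overlapped and differed by −0.07, 0.02 and −0.01. The 12 measured genes of the constitutive core had a median difference of 0.01.

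Of the 5 ATPase subunits of the 19S cap that were measured, 4 were higher in both Shp2hep-/- livers than in both controls, and 0 passed the test. The median difference was 0.21, and over all rows 24.8% were higher in that way. Psmc4 had 13.05 and 12.79 in Shp2hep-/- livers, against 12.50 and 12.68 in control livers (difference 0.33, SE 0.20, adjusted p = 0.483). Psmc3 had 12.33 and 12.16 in Shp2hep-/- livers, against 12.03 and 11.97 in control livers (0.25, SE 0.18, adjusted p = 0.565). Psmc2 had 13.76 and 13.61 in Shp2hep-/- livers, against 13.47 and 13.48 in control livers (0.21, SE 0.18, adjusted p = 0.621). In each of these 3 genes replicate 1 of Shp2hep-/- was the higher of its group. Psmc5 differed by 0.10 on its brightest probe and by −0.12 on another. Psmc1 differed by −0.08 and overlapped between the groups.

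The non-ATPase subunits of the cap, which recognise ubiquitin and remove it, were split evenly, with 5 of 10 differences above 0 and 5 below. None of the 10 passed the test in limma, and at an unadjusted p under 0.05 there was 1, Psmd2. Psmd4, a ubiquitin receptor, had 14.12 and 14.01 in Shp2hep-/- livers, against 13.56 and 13.78 in control livers (difference 0.40, SE 0.19, adjusted p = 0.382). Psmd2, a scaffold of the base of the cap, had 5.38 and 5.75 in Shp2hep-/- livers, where its probe was not above background, against 6.46 and 6.17 in control livers. With this background correction the control mean lay 1.44-fold above the mean of the lowest signals detected on the Shp2hep-/- arrays. The fitted difference was −0.19 with no correction and −1.43 on the deposited processed intensities, so that no least fold can be given. The p of Psmd2 in limma was 0.0188 unadjusted and 0.210 adjusted. It is no separate evidence, because the probe passed the filter through the control livers. The other probe of Psmd2 was undetected on all 4 arrays.

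Psmd12, a subunit of the lid, was lower on both of its probes. The brighter had 11.47 and 11.53 in Shp2hep-/- livers, against 11.89 and 11.84 in control livers (difference −0.37, SE 0.18, adjusted p = 0.380). The dimmer differed by −0.59 (SE 0.26, adjusted p = 0.368 with every probe tested on its own). Psmd6, also of the lid, had 7.04 and 7.72 in Shp2hep-/- livers, against 7.74 and 8.04 in control livers (difference −0.51, SE 0.28, adjusted p = 0.454). Its Shp2hep-/- replicates were farther apart than the group means. Psmd13 differed by 0.18 without overlap. Psmd14, the deubiquitinase of the lid, Psmd1, Psmd7, Psmd8 and Psmd11 overlapped between the groups, with differences from −0.21 to 0.18.

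Assembly factors, the chaperones that build the core and the base of the cap and then leave, had 0 of 6 genes past the test. Both Shp2hep-/- values lay below both control values for 3 of 6, against 23.8% of all rows. Their median difference was −0.15, and −0.02 with median scaling. Psmg1 and Psmg2 form the pair that starts the alpha ring. Psmg1 had 9.53 and 9.50 in Shp2hep-/- livers, against 9.80 and 9.82 in control livers (difference −0.29, SE 0.17, adjusted p = 0.475). Psmg2 had 9.93 and 9.92 in Shp2hep-/- livers, against 10.17 and 10.15 in control livers (difference −0.23, SE 0.17, adjusted p = 0.569). Replicates of both genes lay close together and the groups were apart, yet a further probe of Psmg2 overlapped between the groups and differed by −0.06. Psmd10, also called gankyrin, differed by −0.17 (SE 0.18, adjusted p = 0.699). Psmg3 was the 1 gene above 0, at 0.12. Psmd5 and Psmd9, chaperones of the base, overlapped between the groups on the probes used. The dimmer probe of Psmd9 did not overlap, with 7.37 and 6.71 in Shp2hep-/- livers, against 7.40 and 7.49 in control livers (difference −0.40). On the probes used, Psmd5 had the widest gap between Shp2hep-/- replicates of any member, 0.69.

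Of the activators, which open the core without the 19S cap, 0 of 5 genes passed and the median was 0.04. Psme1 and Psme2 encode the subunits of PA28, an activator induced by interferon gamma, and their differences had opposite signs. Psme2 had 9.09 and 9.52 in Shp2hep-/- livers, against 9.82 and 9.75 in control livers (difference −0.48, SE 0.22, adjusted p = 0.363). Psme1 had 13.15 and 12.93 in Shp2hep-/- livers, against 12.92 and 12.69 in control livers (difference 0.23, SE 0.20, adjusted p = 0.620). Another probe of Psme1 differed by −0.08, so that its direction is not settled. Psme3, the nuclear activator, its partner Psme3ip1 (0.10, SE 0.22, adjusted p = 0.872) and Psme4, also called PA200, overlapped between the groups.

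**Figure D4:**
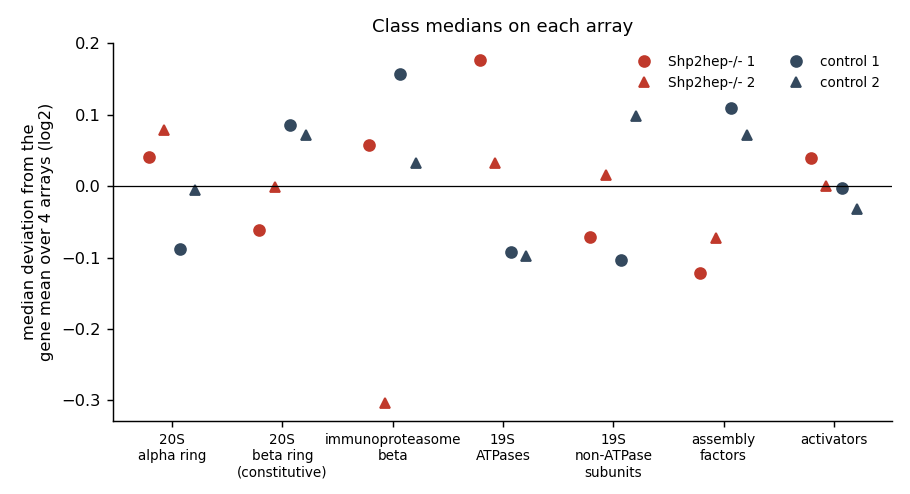
Median over the genes of each class of the deviation from the gene's mean over the 4 arrays (log2), with 1 symbol per array. Both Shp2hep-/- arrays lie above both control arrays for the alpha ring and the 19S ATPases. They lie below both for the constitutive beta ring and the assembly factors. For the activators they lie above only narrowly, with 0.0008 on replicate 2 of Shp2hep-/- and −0.0026 on replicate 1 of the controls. Of all single rows, 48.6% had groups that did not overlap, and no such share was computed for medians over sets of genes. Replicate 2 of Shp2hep-/- stands at −0.30 for the immunoproteasome subunits.

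The class medians also varied between arrays of a group. For the 19S ATPases the median deviation was 0.18 and 0.03 on the Shp2hep-/- arrays, against −0.09 and −0.10 on the control arrays. The immunoproteasome medians were 0.06 and −0.30 on the Shp2hep-/- arrays, against 0.16 and 0.03 on the control arrays. For the assembly factors they were −0.12 and −0.07 on the Shp2hep-/- arrays, against 0.11 and 0.07 on the control arrays.

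Where a gene had several detected probes, their agreement sets a further limit. There were 13 such genes, and the probes had the same sign for 7 of them and opposite signs for 6. The genes with opposite signs were Psmb7, Psme1, Psmd11, Psmc5, Psmd7 and Psme3ip1. The spread between probes was 0.77 for Psmb7 and at most 0.315 for the others. All 7 genes with the same sign, Psma7, Psmb2, Psmb10, Psmd9, Psmd10, Psmd12 and Psmg2, were lower on every detected probe. Such agreement was not counted over all rows.

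**Figure D5:**
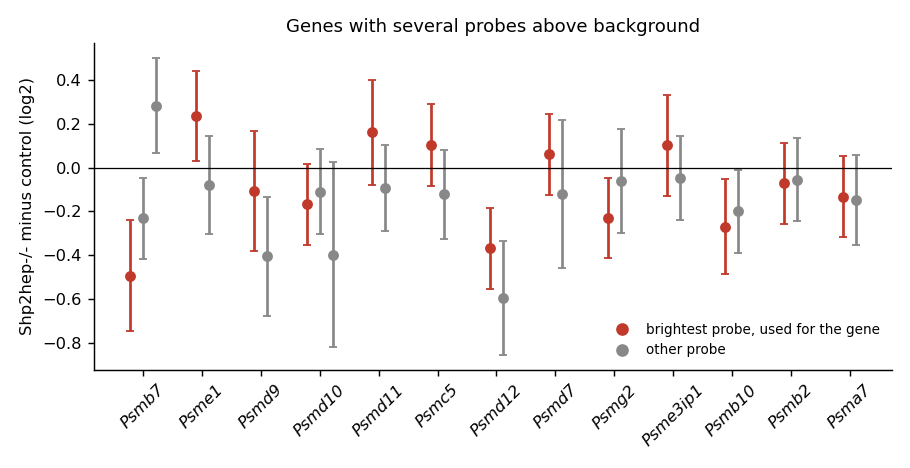
Difference between Shp2hep-/- and control liver (log2) on each detected probe of the 13 proteasome genes with several, with bars of 1 SE. The probes of Psmb7 span 0.77, more than those of any other gene shown.

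Genes that work with the proteasome were similar. Of 11 measured genes for associated proteins, which include deubiquitinases, shuttle factors and Pomp, the maturation factor of the core, 0 passed and the median was −0.07. Uchl5, a deubiquitinase of the cap, had 8.89 and 8.96 in Shp2hep-/- livers, against 9.35 and 9.46 in control livers (difference −0.48, SE 0.18, adjusted p = 0.282). Ecpas, an adaptor of core and cap, differed by 0.36 and the shuttle gene Ubqln4 by −0.22, with adjusted p of 0.544 and 0.608. Pomp differed by −0.01. Of 4 genes of ubiquitin supply and removal 0 passed, with a median of 0.12. Otub1, a deubiquitinase, was at −0.40 (adjusted p = 0.356), Usp5 at 0.14 and Ube2n at 0.15.

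Among 7 measured genes that control proteasome transcription, 0 passed, 7 of 7 differences were above 0 and the median was 0.18. The groups overlapped for 5 of the 7, and over all rows 4716 of 9311 differences were above 0. Nfe2l2 had 8.60 and 8.45 in Shp2hep-/- livers, against 8.23 and 8.29 in control livers (difference 0.27, SE 0.18, adjusted p = 0.523). Bach1, a repressor at antioxidant elements, differed by 0.33 and Stat3 by 0.18, with adjusted p of 0.696 and 0.709. Gsta1, a glutathione transferase, passed the test in limma (difference 2.06, SE 0.22, adjusted p = 0.0345). It was the 1 gene called of 11 NRF2 target genes, against 0.795% of all rows tested. On the deposited processed intensities, and in each fit that left out 1 array, 0 of these genes passed. All 11 were above 0, with a median of 0.68, and Hmox1 (1.11, adjusted p = 0.0894) and Osgin1 (1.14, adjusted p = 0.101) did not pass. Their part in the value of Psmb5 was not tested.

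Interferon and antigen processing genes showed no common direction. Of 27 measured, 0 passed, with 15 above 0 and 12 below and a median of 0.06. Irf1, an interferon-induced activator, had 12.33 and 12.25 in Shp2hep-/- livers, against 11.43 and 11.19 in control livers (difference 0.98, SE 0.19, adjusted p = 0.116). Stat2 differed by 0.62 (adjusted p = 0.198) and the guanylate-binding protein gene Gbp7 by −0.78 (adjusted p = 0.287). Tap1, which shares its upstream region with Psmb9, had 7.62 and 6.46 in Shp2hep-/- livers, against 6.55 and 6.84 in control livers, so that the groups overlapped. Tap1 was chosen for its position next to Psmb9 after its values were seen.

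Markers of immune cells, which hold immunoproteasomes, were measured on the same arrays. Of 10 Kupffer cell and monocyte markers on the array 8 were measured, 0 passed the test, 7 of 8 were above 0 and the median was 0.96. Over all rows 4716 of 9311 were above 0. The summed linear level of the 8 markers was 9210.4 and 8677 in Shp2hep-/- livers, against 6034 and 3521 in control livers. Fcgr1 and Cd5l were not above background. Of 9 T and NK cell markers on the array 3 were measured, with sums of 194 and 142 in Shp2hep-/- livers and 225 and 112 in control livers, and Cd3e, Cd8a, Cd4, Gzma and Klrb1c were not above background on any array. Cd3d was detected on 1 array and was not measured. The part of these cells in the immunoproteasome values was not tested.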

How the data were processed

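Total RNA of 4 mouse liver samples, 500 ng each, was labelled as cRNA and hybridised to Illumina arrays, per the labels' protocols. The authors deposited a scanner table with a mean bead intensity, on a linear scale without background subtraction, and a detection p-value per probe and array. Every array had a mean intensity of 1187, which points to a scaling before deposit. The deposited table of processed intensity, with 25.3% to 25.4% of values below 0, ranked probes as the scanner table did. How it was made is not given in the sources used here, and it served as an alternative only.

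Background correction by detection p-value, an offset of 16, quantile normalization and log2 were run in R 4.3.3 (limma 3.58.1, function neqc). Probes detected (p under 0.05) on at least 2 arrays were kept, 12197 in all, and each gene was represented by its brightest probe, giving 9311 rows. Symbols came from the platform annotation, which gave a single symbol for 23978 probes, several for 0 and none for 1719. The reference gene table changed 0 symbols. Rows without a probe identifier (4) were left out. Groups were compared by a two-sided limma fit (lmFit, eBayes) with Benjamini-Hochberg adjustment over all rows, and the fit was tested on simulated data. The number of arrays limits the precision.

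The members and lists were chosen with earlier results of these data known. The genes named are the catalytic subunits with their immunoproteasome counterparts, Psme1 and Psme2, the 3 genes of each class and companion list with the smallest p, and the 3 members with the largest difference in each direction; others appear to account for every member. The companion lists cover proteasome-associated proteins, ubiquitin supply, control by NRF1, NRF2 targets, interferon and antigen processing, and heat shock. Markers of 9 cell types were taken as well. Alternatives were no background correction, median scaling, the deposited processed intensities, detection on all arrays, no detection filter, the mean of probes, every probe separately, a trended and robust variance, and leaving out each array.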

Additional observations from a re-analysis of the deposited data

How the results depend on the processing

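The count of proteasome genes called lower stayed at 0 under all 8 alternatives that kept the 4 arrays, and the count called higher became 1 (Psmb5) under 2 of them. Of 275 recomputed differences of the 23 named genes, 270 kept their direction and side of the threshold. Psmb9 turned to 0.036 with median scaling, which itself moved the median of all rows to 0.09. Over the fits that left out 1 array, Psmb9 ran from −0.33 to 0.22 and Psme3ip1 from −0.13 to 0.33, the turned values 0.22 and −0.13 being those without Shp2hep-/- replicate 2. No paired analysis was possible because the control labels carry no replicate numbers. With 2 arrays per group and most class medians within 0.3 of 0, direction is weakly determined. Over all rows, 74 were called with the settings reported, 311 with no background correction, 367 with a trended and robust variance, 46 with every probe on its own, 15 from the deposited processed intensities and 0 to 27 with 1 array left out. The cause of the changes listed here was not tested.

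With no background correction there were 1 proteasome gene (Psmb5, 0.68, adjusted p = 0.0436), 4 NRF2 targets and 1 interferon gene called higher and 1 heat shock gene called lower, and medians were −0.044 for all proteasome genes, −0.10 for assembly factors and 0.56 for NRF2 targets. With median scaling, medians were 0.029 for all proteasome genes and for the alpha ring, −0.12 for the constitutive beta ring, −0.018 for assembly factors and 0.16 for interferon genes. From the deposited processed intensities 0 NRF2 targets were called. With detection on all 4 arrays the proteasome median was −0.033. With no detection filter it was −0.035, and that of the NRF1 control list 0.045. Averaging the probes of a gene, medians were −0.19 for assembly factors and 0.46 for NRF2 targets. With every probe on its own they were −0.079 for all proteasome genes, −0.047 for activators, 0.52 for NRF2 targets and 0.14 for interferon genes. With a trended and robust variance 1 proteasome gene (Psmb5, adjusted p = 0.0431), 5 NRF2 targets and 1 interferon gene were called higher and 1 heat shock gene lower.

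Leaving out 1 array at a time gave 0 called NRF2 targets in every fit. Class medians then ran from −0.026 to 0.015 for all proteasome genes, 0.052 to 0.14 for the alpha ring, −0.13 to −0.037 for the constitutive beta ring, −0.33 to −0.077 for immunoproteasome subunits, −0.16 to 0.16 for non-ATPase subunits, −0.23 to −0.15 for assembly factors and 0.00045 to 0.080 for activators. They ran from −0.14 to 0.047 for associated proteins, −0.10 to 0.18 for ubiquitin supply, 0.083 to 0.31 for the NRF1 control list, 0.50 to 0.77 for NRF2 targets, −0.029 to 0.15 for interferon genes and −0.51 to 0.066 for heat shock genes.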

Other observations

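Of 8 measured heat shock and unfolded protein genes 0 passed limma's test, with a median difference of −0.20 between Shp2hep-/- and control liver. Atf4, a transcription factor of the integrated stress response, had 9.09 and 7.66 in Shp2hep-/- livers, against 10.53 and 10.60 in control livers (difference −2.19, SE 0.47, adjusted p = 0.136). Hspb1, a small heat shock protein gene, had 9.08 and 10.04 in Shp2hep-/- livers, against 8.05 and 8.64 in control livers (1.22, SE 0.38, adjusted p = 0.226). Hsp90aa1 differed by −0.90 (adjusted p = 0.503), with replicates of each group more than 1 log2 unit apart.

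The remaining cell type markers, of which 0 genes passed the test, had median differences of −0.06 for 6 hepatocyte genes, −0.08 for 8 endothelial genes, 0.42 for 7 stellate and matrix genes, 0.45 for 3 dendritic cell genes and 1.19 for 3 red cell genes. Median differences were −0.04 for the 3 T and NK cell genes and −0.11 for Sox9, the 1 cholangiocyte gene measured, which was detected on 2 arrays. Cd79b, the 1 B cell gene measured, had 6.69 and 6.44 in Shp2hep-/- livers, against values below the lowest detected signal in both control livers.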
